A study of Gossypium barbadense and Gossypium hirsutum with 72 samples.

Results

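The set described here holds 121 of the 64274 gene models with at least 1 read in any mRNA library, and was chosen by measured values, for a higher level in nulliplex than in normal-branch shoot apices at the pre-squaring stage of both cotton species. Levels are reads per kilobase of gene model and per 1000000 counted reads (RPKM), and a gene not listed in a library counts as 0. A member had a nulliplex mean of at least 2 RPKM and at least 2 times the normal-branch mean in each species, its lowest nulliplex library above its highest normal-branch library in each, and, at squaring in G. hirsutum, a nulliplex mean over 0.5 times the normal-branch mean. The pre-squaring parts were met by 2708 genes in G. barbadense and 878 in G. hirsutum, and by 201 in both. Of these 201, 73 failed the squaring condition and 7 were left out by name together with 5 named genes that did not meet the rule, among them homologues of PCNA2, CYCD1;1 and SEP3. The members nearest inside the fold limit were CotAD_13482 and CotAD_00460, both with a smaller ratio of 2.007, and the genes nearest outside were CotAD_65806 with 1.996 and CotAD_36605 with 1.992. At the squaring condition, CotAD_06850 lay inside with a ratio of 0.5001 and CotAD_40542 outside with 0.4995.

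The study compared shoot apices of about 10 mm from 2 normal-branch and 2 nulliplex lines at 3 stages, with 3 biological replicates a group and 36 mRNA libraries in all. In Gossypium barbadense the normal-branch line was Hai1 and the nulliplex line Xinhai16, and in Gossypium hirsutum they were Huazhong 94-3130 and line 3798. Group names give the species (Gb, Gh), the stage (1, seedling; 2, pre-squaring; 3, squaring) and the branch type (WT, normal; np, nulliplex). Each apex was a bulk sample, so that more cells of a type and more RNA per cell cannot be told apart.

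By the labels, seedlings had 2 leaves in every line. Pre-squaring plants had about 8 leaves in Gb2WT, 6 in Gb2np, 6 in Gh2WT and 5 in Gh2np. Squaring plants had 11 in Gb3WT, 9 in Gb3np, 8 in Gh3WT and 12 in Gh3np. With 1 line for each branch type and species, branch type cannot be told apart from the rest of the line's genome or, after the seedling stage, from leaf number.

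Squares are the flower buds of cotton, enclosed in bracts. In normal plants they form on fruiting branches that grow from buds in the leaf axils, whereas in nulliplex plants flowers sit in the axils of the main stem without a fruiting branch. An apex sample holds the dividing cells of the meristem, young leaf primordia and, later, the first bud primordia, so dividing-cell, leaf and flower genes can all contribute to it.

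The libraries held a median of 25228470 counted reads, with the lowest total at 94.6% and the highest at 111% of it, and listed 51699 to 54925 genes. Before the results, 3 seedling libraries stand apart for the members: 49 of 121 members were at least 2 times as high in Gh1np replicate 2 as in both other libraries of its group, 44 in Gb1np replicate 3 and 29 in Gb1WT replicate 2. The same held for 6.37%, 4.01% and 2.88% of the 35686 genes with at least 2 RPKM in both pre-squaring nulliplex groups, the background used below for RPKM counts. Sums over marker lists moved in these libraries and at pre-squaring, though not every listed gene moved with its sum. The summed RPKM of 7 replication, chromatin and cell-cycle genes, 3 of them members, was 102.8 in Gh1np replicate 2 and 30.2 and 26.6 in the other replicates, 55.8 in Gb1np replicate 3 against 31.9 and 16.1, and 66.9 in Gb1WT replicate 2 against 20.5 and 21.0. At pre-squaring the sum was 30.1 to 45.5 in Gb2WT against 97.5 to 118 in Gb2np, and 19.7 to 51.0 in Gh2WT against 95.9 to 127 in Gh2np. At squaring it was 41.6 to 65.8 in Gb3WT against 74.6 to 97.8 in Gb3np, and 78.3 to 117 in Gh3WT against 47.0 to 55.3 in Gh3np. The 4 genes of the green tissue list, none a member, summed to 30.2 to 43.7 in Gb2WT against 108 to 110 in Gb2np, to 32.2 to 43.6 in Gh2WT against 70.4 to 80.6 in Gh2np, and to 125 in Gh1np replicate 2 within a range of 125 to 1369 over the seedling libraries. The pre-squaring shifts of both sums were partly fixed in advance. The rule itself set the 3 members higher there, and the other genes of both lists come from the study's tables of differing genes. The PCNA2 homologue made up the largest part of the replication sum, with a mean of 69.9 in Gb2np. In seedlings the CA1 homologue did so in the green tissue sum, with 1080 in Gb1WT. At pre-squaring the CYCD1;1 homologue went against its sum in G. barbadense, at 6.87 in Gb2WT and 5.02 in Gb2np. The TROL homologue of the green tissue list did so in G. hirsutum, at 5.54 in Gh2WT and 2.32 in Gh2np. The other listed genes went with their sums there. No gene of either list had a group mean of 0, and the part of these shifts in the results below was not tested.

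**Figure D1:**
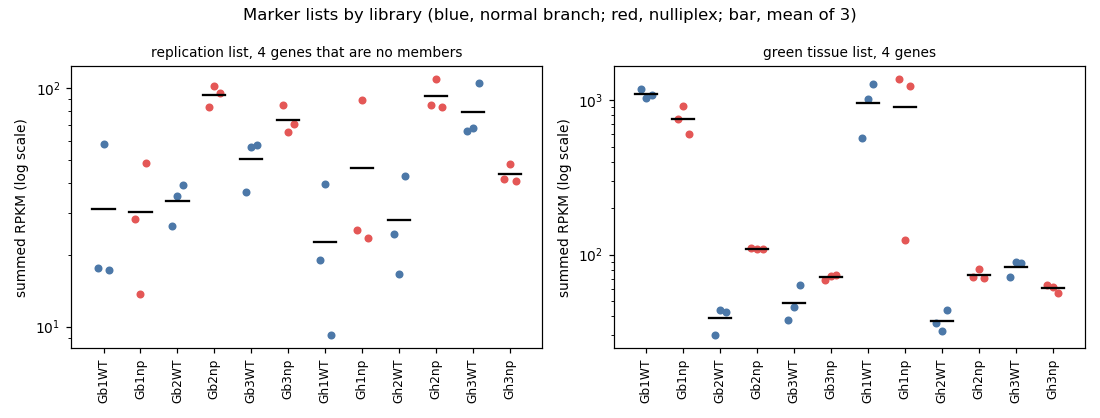
Summed RPKM (log scale) of the 4 replication genes that are not members and of the 4 green tissue genes in each of the 36 libraries, with bars at group means of 3. The replication sum separated the nulliplex from the normal-branch libraries at pre-squaring in both species and in the opposite direction at squaring in G. hirsutum, and Gh1np replicate 2 stood high in it and low in the green tissue sum. The genes come from the study's tables of differing genes, so the pre-squaring separation was partly fixed in advance.

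At pre-squaring the values chose the members and are given as a description. The median member stood at 1.32 RPKM in Gb2WT and 8.51 in Gb2np, and at 3.51 in Gh2WT and 10.3 in Gh2np. A ratio of at least 2 was met by every member by construction, and by 6.53% of the background genes in G. barbadense and 1.98% in G. hirsutum. Ratios reached further in G. barbadense, where the median was 4.31 over the 119 members with reads in Gb2WT and the highest 2165, than in G. hirsutum, where the median was 2.48 and the upper quartile 2.88. The coding length of the members had a median of 822 bases, against 936 over all genes. Reads covered a median of 97.3% of the length of a member's model in Gb2np and 75.6% in Gb2WT.

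**Figure D2:**
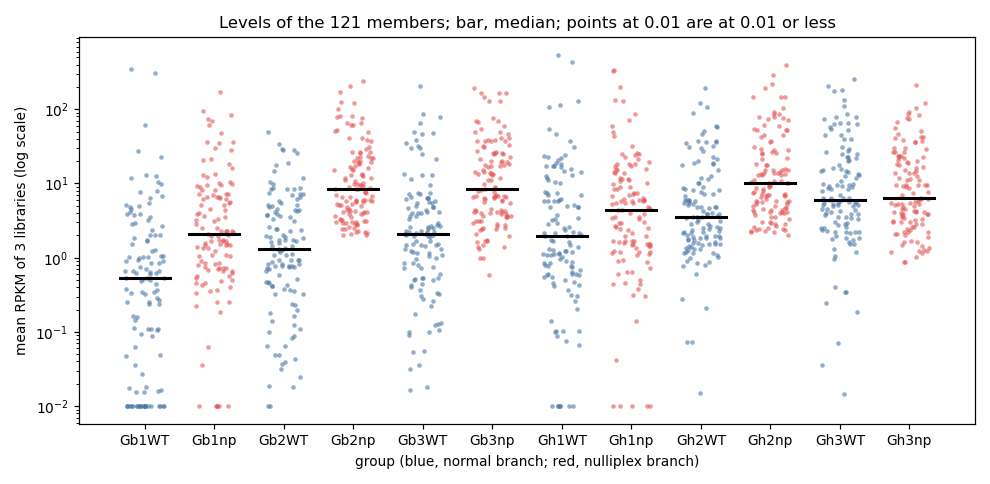
Mean RPKM (log scale) of each of the 121 members in the 12 groups, with bars at the median and points at 0.01 standing for 0.01 or less. The medians ran from 0.526 in Gb1WT to 10.3 in Gh2np, and the Gb2np and Gh2np groups hold no value under 2 RPKM because the rule required it.

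The first question is whether the same genes also differed between branch types before and after pre-squaring. The rule left this free except at squaring in G. hirsutum. There it kept out genes whose nulliplex mean was low against the normal-branch mean, so the Gh3 counts and shares below are a description. At squaring in G. barbadense the nulliplex libraries lay wholly above the normal-branch ones for most members. In seedlings of both species this held for fewer, and at squaring in G. hirsutum more members lay wholly below than wholly above. In Gb3np the mean was at least 2 times that of Gb3WT for 80 members (66.1%, against 3.44% of the background), and no library overlapped for 95 (78.5%, against 24.4%). In Gb1np the mean was at least 2 times that of Gb1WT for 61 members (50.4%, against 2.75%), with no overlap for 51 (42.1%, against 12.6%). In Gh1np the mean was at least 2 times that of Gh1WT for 47 members (38.8%, against 5.77%), but the libraries were apart for only 18 (14.9%, against 6.43%). In Gh3np it was at least 2 times that of Gh3WT for 20 members (16.5%, against 5.83%), and the nulliplex libraries lay wholly above for 28 (23.1%, against 26.9%) and wholly below for 38 (31.4%, against 20.6%).

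The medians followed the same order. On a log2 scale of mean RPKM + 0.1, the nulliplex minus normal-branch difference of the 121 members had a median of 0.75 in seedlings and 1.76 at squaring in G. barbadense, where the background genes had 0.07 and 0.04. In G. hirsutum it was 0.72 in seedlings and −0.30 at squaring, where the background genes had −0.04 and 0.05. The seedling shift in G. hirsutum leaned on Gh1np replicate 2. Over the 104 members tested on counts, the median fitted log2 fold change was 0.76, with 90 members above 0. Without that library it was 0.33, with 72 above 0. At squaring in G. hirsutum the rule kept out ratios of 0.5 or less, so the lower end of this distribution was set by the choice of members: 73 members (60.3%, against 42.7%) lay between 0.5 and 1.

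**Figure D3:**
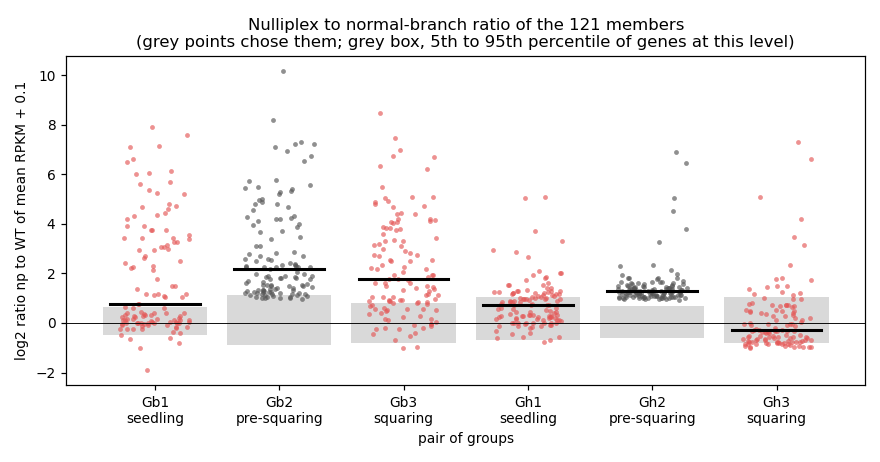
Log2 ratio of nulliplex to normal-branch mean RPKM + 0.1 for each member in the 6 pairs of groups, with black bars at medians and grey boxes from the 5th to the 95th percentile of the background genes. The grey pre-squaring points chose the members, and the rule also bounded the points at squaring in G. hirsutum from below. The median of the pairs other than pre-squaring was highest at squaring in G. barbadense (1.76) and below 0 at squaring in G. hirsutum (−0.30).

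Tested on the counts, Gb3np exceeded Gb3WT for 45 of 121 members and lay below it for 0 by edgeR's quasi-likelihood test, at a Benjamini-Hochberg adjusted p under 0.001 and a log2 fold change beyond 1, where 0.688% of all genes tested were called higher and 0.416% lower. At an adjusted p under 0.05 alone, 80 were higher and 0 lower (8.44% and 8.51% of all genes). The Gb3WT mean was under 1 RPKM for 39 members (32.2%, against 0.843% of the background). A member with few reads in Gb3WT could pass the filter on low counts only through Gb3np, and could then only be called higher. The 45 became 25 without Gb3WT replicate 1, 29 without Gb3WT replicate 2 and 24 without Gb3np replicate 3. Over all genes the 321 higher and 194 lower calls became 164 and 72, 161 and 60, and 153 and 48.

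In seedlings of G. barbadense, 95 members passed the filter on low counts and 8 of them were called higher and 0 lower in Gb1np by the same test (0.27% and 0.159% of all genes). The Gb1WT mean was under 1 RPKM for 78 of the 121 members (64.5%, against 4.32% of the background). A member with few reads in Gb1WT could pass the filter only through Gb1np, and could then only be called higher. The 2 directions were thus not equally open. The count of 8 became 1 without Gb1WT replicate 1, 3 without Gb1WT replicate 2 or 3, and 18 without Gb1np replicate 3. Over all genes the 119 higher and 70 lower calls became 8 and 6, 18 and 10, 16 and 10, and 157 and 70. Members called at both stages numbered 5, which is 5 of the 8 in seedlings and 5 of the 45 at squaring. The share of all genes called at both stages was not counted, so nothing is read from this overlap. The change of the branch effect from seedling to squaring was tested for all 121 members, and edgeR called 0, where 0.198% of all genes were called higher and 0.153% lower, and DESeq2 called 1 lower. At an unadjusted p under 0.05, which 17.4% of all genes passed in either direction, 11 members were higher and 18 lower. This balance was not stable, with 30 higher and 10 lower without replicate 3 of every group.

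In seedlings of G. hirsutum edgeR called 0 of the 104 members tested and 0% of all genes. At an unadjusted p under 0.05, which 13.1% of all genes passed in either direction, 19 members were higher and 0 lower, and DESeq2 called 3. The Gh1WT mean was under 1 RPKM for 43 members (35.5%, against 3.4% of the background), so here too the directions were not equally open. Without Gh1np replicate 2, 14 members were higher and 0 lower at that unadjusted p, which 6470 of 45317 genes passed. At squaring in G. hirsutum, 4 of 117 members tested were called higher in Gh3np and 2 lower, against 0.865% and 0.912% of all genes. The rule used these means and kept out ratios of 0.5 or less, close to the fold a lower call needs, so these counts describe the members and nothing is read from the shares. The 6 calls became 3 without Gh3WT replicate 1 or without any of the Gh3np replicates. Over all genes the 402 higher and 424 lower calls became 121 and 179, 100 and 69, 42 and 42, and 85 and 78. At an adjusted p under 0.05 alone, 14 members were higher and 36 lower (13.4% and 14.3% of all genes), with the same limit.

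The difference between the species in the squaring branch effect was itself tested, in 1 fit over the 36 libraries. It was higher in G. barbadense for 39 members and lower for 2, where 2.34% and 3.4% of all genes were called, by edgeR's quasi-likelihood test with Benjamini-Hochberg adjustment. The G. hirsutum side of this contrast was part of the rule, so the counts are given as a description. The count of 41 was 12 without replicate 1 of every group. That fit called 296 higher and 399 lower of 51792 genes, against 1207 and 1756 of 51627 with every replicate. Of the 80 members at least 2 times as high in Gb3np, 44 had a Gh3np mean below that of Gh3WT. Of all 121 members, 73 had a Gh3np mean between 0.5 and 1 times that of Gh3WT (60.3%, against 42.7% of the background). The background share of the joint condition was not counted, so nothing is read from the 44.

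**Figure D4:**
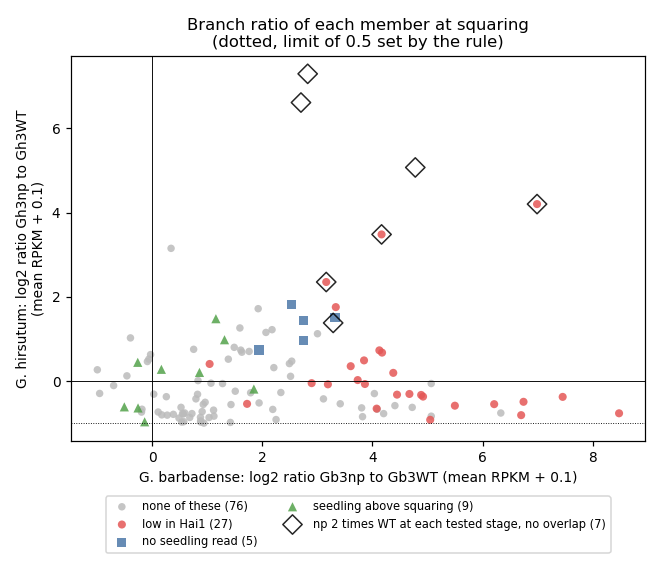
Log2 nulliplex to normal-branch ratio of mean RPKM + 0.1 at squaring in G. barbadense (horizontal) and G. hirsutum (vertical) for each member, by pattern, with the dotted limit of 0.5 from the rule. The 27 members low in Hai1 lie to the right, mostly around or below 0 on the vertical axis, and the 7 diamonds lie above 0 on both axes.

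Of the members, 8 have an Arabidopsis homologue named in the study's tables of differing genes, tables the authors chose on these samples. In 3 the homologue acts on chromosomes in dividing cells. CotAD_65745 is a homologue of ORC6, a subunit of the origin recognition complex that marks where DNA replication starts. It stood at 2.97, 4.06 and 4.45 RPKM in Gb2WT and 9.56, 9.66 and 8.31 in Gb2np, and at 4.13, 2.60 and 5.24 in Gh2WT and 9.94, 10.9 and 7.55 in Gh2np. The nulliplex libraries lay above the normal-branch ones in both species, as the rule required.

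At squaring CotAD_65745 stood at 3.09, 5.40 and 5.63 RPKM in Gb3WT and 8.59, 6.69 and 5.33 in Gb3np, and at 8.78, 11.2 and 6.95 in Gh3WT and 5.12, 4.70 and 3.76 in Gh3np. The groups overlapped in G. barbadense, and in G. hirsutum every nulliplex library was below every normal-branch one. The log2 fold change was 0.50 (SE 0.27) in G. barbadense and −1.06 (SE 0.22) in G. hirsutum, with adjusted p of 0.245 and 0.00848 by edgeR's quasi-likelihood test with Benjamini-Hochberg adjustment, so neither was called. In seedlings the mean was 3.89 ± 2.32 (SD, n = 3) in Gb1WT and 3.49 ± 2.16 in Gb1np, and 2.57 ± 0.565 in Gh1WT and 4.44 ± 3.67 in Gh1np, whose replicate 2 held 8.64.

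CotAD_06239 and CotAD_07322 are both homologues of SYN3, a kleisin subunit of the cohesin ring that holds sister chromatids together. CotAD_06239 stood at means of 0.774 ± 0.428 RPKM (SD, n = 3) in Gb2WT and 2.45 ± 0.261 in Gb2np, and 0.794 ± 0.768 in Gh2WT and 3.05 ± 0.52 in Gh2np, values that chose it. CotAD_07322 stood at 0.722 ± 0.426, 2.91 ± 0.53, 0.609 ± 0.49 and 2.39 ± 0.533 RPKM in the same order. In Gh3 both were below normal branch with no overlap, at 2.25 ± 0.807 against 1.18 ± 0.192 for CotAD_06239 and 1.83 ± 0.378 against 1.02 ± 0.12 for CotAD_07322. These differences were not called (log2 fold change −1.01, SE 0.30, adjusted p = 0.0347, and −0.92, SE 0.24, adjusted p = 0.0215, by edgeR's quasi-likelihood test with Benjamini-Hochberg adjustment). The homologues of PCNA2, the sliding clamp of DNA polymerase, and of CYCD1;1, a D-type cyclin, belong to the same list and are not members.

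Among the 7 listed replication, chromatin and cell-cycle genes, edgeR called 0 in the branch comparisons of Gb1, Gb3 and Gh1, and 1 higher in Gh3np, the CYCD1;1 homologue. At an unadjusted p under 0.05, 0 were higher or lower in Gb1 and Gh1, where 13.3% and 13.1% of all genes passed in either direction. In Gb3np 4 were higher (32.9% of all genes in either direction), and in Gh3np 1 was higher and 6 lower (40.9%). DESeq2 called 0 in Gb1, Gb3 and Gh1 and 4 in Gh3. The median log2 fold change of the 7 was −0.15 in Gb1, 0.54 in Gb3 and −1.01 in Gh3, and 1.11 over the 6 tested in Gh1. The other lists held no member. None of the 4 green tissue, 9 cell wall, 10 flowering and meristem or 2 phloem genes was called by edgeR in a branch comparison at seedling or squaring, where 15 values were higher and 14 lower at an unadjusted p under 0.05 and DESeq2 called 4. The listed genes come from tables that the study chose on the same samples, and were grouped into lists here, so their directions are no independent evidence. The HB-8 homologue stands in both the flowering and the phloem list.

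The other 5 members with a homologue fall into several kinds. CotAD_64010 has a RING/U-box domain, the kind found in E3 ubiquitin ligases, and rose from Gh1WT to Gh3WT, from 0.754 ± 0.258 to 5.17 ± 1.13 RPKM (SD, n = 3; log2 fold change 2.57, SE 0.30, adjusted p = 3.77e-04 by edgeR's quasi-likelihood test with Benjamini-Hochberg adjustment). The call was lost without Gh1WT replicate 1 or any Gh3WT library, with an adjusted p of up to 0.00265. In its branch comparisons no call was made: the means at squaring were 2.67 ± 0.813 in Gb3WT and 4.07 ± 0.137 in Gb3np, and 5.17 ± 1.13 in Gh3WT and 3.02 ± 0.544 in Gh3np.

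CotAD_65900 encodes a protein with a Rossmann fold, which binds nicotinamide cofactors in many oxidoreductases. It had 0.614, 0.418 and 0 RPKM in Gh3WT and 4.90, 4.60 and 2.05 in Gh3np, 5 reads against 56, and did not pass the filter there. It was also low in Gh2WT, at 1.69, 1.04 and 2.48, against 10.6, 7.54 and 9.55 in Gh2np. In G. barbadense it stood out at pre-squaring, at 4.60 ± 1.56 in Gb2WT and 14.99 ± 2.47 in Gb2np, while its squaring values of 4.97 ± 1.68 and 6.32 ± 1.61 overlapped between branch types.

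CotAD_68015 belongs to the CAP superfamily, which holds secreted pathogenesis-related proteins. It stood at 0.832 ± 0.588 RPKM in Gb2WT and 3.08 ± 0.172 in Gb2np, and at 1.30 ± 0.539 in Gh2WT and 6.77 ± 1.49 in Gh2np. At squaring in G. hirsutum the branch types were close, at 6.39 ± 1.86 and 6.45 ± 1.42, with a log2 fold change of −0.07 (SE 0.28).

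The last pair are homologues of Arabidopsis proteins of unknown function. CotAD_18636 stood at 4.27, 4.68 and 4.34 RPKM in Gb2WT and 21.5, 21.7 and 22.4 in Gb2np, and at 9.30, 5.64 and 7.48 in Gb3WT and 26.8, 17.9 and 15.8 in Gb3np. At squaring in G. hirsutum the order was opposite, with 12.7, 12.9 and 18.4 in Gh3WT and 5.76, 9.83 and 6.56 in Gh3np. Libraries did not overlap in these pairs, and the difference between the species in log2 fold change was 2.44 (SE 0.53, adjusted p = 0.0012 by edgeR's quasi-likelihood test with Benjamini-Hochberg adjustment), just short of the threshold. CotAD_29961 rose from Gb1np to Gb3np, from 3.83 ± 1.82 to 37.3 ± 8.70 (log2 fold change 2.99, SE 0.35, adjusted p = 3.59e-04 by the same test), and the call was lost without Gb1np replicate 1 or any Gb3np library, with an adjusted p of up to 0.00251. Its Gb3WT libraries stood at 22.5, 23.1 and 71.1 and overlapped with those of Gb3np.

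Most members have no homologue in those tables and are known by identifier only. They fell into a few patterns, which were drawn up after their values were seen and are described without a test of the pattern. Calls counted within a pattern come from the fits over all genes and, where the pattern was drawn on the same means, lend it no support. The largest held 27 members that were under 1 RPKM in Hai1 and at 1 RPKM or more in Xinhai16 at both seedling and squaring (22.3% of members, against 0.39% of the background). In 24 of them both G. hirsutum lines were at 1 RPKM or more at both stages (0.353% of the background). The median mean of the 27 was 0.0629 RPKM in Gb1WT and 3.61 in Gb1np, and 0.322 in Gb3WT and 6.68 in Gb3np, with no overlap for any of the 27 at either stage. In G. hirsutum the medians were 5.76 in Gh1WT, 7.26 in Gh1np, 9.65 in Gh3WT and 9.15 in Gh3np. Of the 27, edgeR called 4 higher in Gb1np, 21 in Gb3np and 1 in Gh3np. The species difference at squaring was called higher for 21.

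The member with the highest levels of this pattern was CotAD_12184. Its Hai1 libraries held 0.215, 0.216 and 0.321 RPKM in Gb1WT, 0.111, 0.110 and 0.110 in Gb2WT and 0.314, 0.322 and 0.671 in Gb3WT. Xinhai16 held 50.8, 50.1 and 148 in Gb1np, 237, 249 and 229.7 in Gb2np and 210.4, 177 and 186 in Gb3np. Thus 3 to 12 reads a group stood against 2337 to 6503.

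In G. hirsutum CotAD_12184 was high in both lines, at 113 ± 89.7 RPKM in Gh1WT, 133 ± 57.7 in Gh1np, 109 ± 26.9 in Gh2WT and 222 ± 13.03 in Gh2np (SD, n = 3). At squaring it stood at 202, 222 and 195 in Gh3WT and 119, 117 and 128 in Gh3np, so the nulliplex libraries were the lower ones. The log2 fold change was 8.70 (SE 0.22, adjusted p = 4.35e-07) at squaring in G. barbadense, and the species difference 9.52 (SE 0.73, adjusted p = 1.08e-10), by edgeR's quasi-likelihood test with Benjamini-Hochberg adjustment. Both held without any 1 library or replicate number. In seedlings it was 8.22 (SE 0.64, adjusted p = 4.04e-04), a call lost without any Gb1WT library (adjusted p of up to 0.00647).

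CotAD_15968 had the same shape. It held 0.158, 0.0531 and 0.0526 RPKM in Gb1WT and 23.2, 24.4 and 60.9 in Gb1np, and 1.00, 0.764 and 0.796 in Gb3WT against 181, 167 and 154 in Gb3np. Hai1 was far below Xinhai16 throughout, and in G. hirsutum the means of 65.2 ± 22.5 in Gh3WT and 50.3 ± 12.3 in Gh3np overlapped. In Gb3 the log2 fold change was 7.56 (SE 0.17, adjusted p = 4.35e-07) and the species difference 7.98 (SE 0.62, adjusted p = 1.7e-10) by edgeR's quasi-likelihood test with Benjamini-Hochberg adjustment, both held without any 1 library or replicate number. The seedling value was 8.56 (SE 0.58, adjusted p = 2e-04, lost without any Gb1WT library with up to 0.00321), and within Hai1 the gene rose from seedling to squaring by 2.96 (SE 0.50, adjusted p = 9.07e-04, lost without any of the 6 libraries, up to 0.00529).

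CotAD_76734 had 0, 0.143 and 0 RPKM in Gb1WT, 0, 0 and 0.145 in Gb2WT and 0, 0 and 0.296 in Gb3WT, 2 to 4 reads a group. It had 22.7, 21.6 and 19.3 in Gb3np, and 65.9, 101 and 26.9 in Gh3WT against 42.3, 41.4 and 54.1 in Gh3np. The Hai1 libraries were all under 1 RPKM and those of the other 3 lines all above it. At squaring in G. barbadense the log2 fold change was 7.62 (SE 0.51, adjusted p = 6.21e-05 by edgeR's quasi-likelihood test with Benjamini-Hochberg adjustment), and the species difference was 8.16 (SE 0.95), a call lost without replicate 1 (adjusted p = 0.00167). In Xinhai16 it rose from seedling to squaring by 3.54 (SE 0.25, adjusted p = 3.99e-05).

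CotAD_04162 was highest in seedlings. It had 1 read over the 3 Gb1WT libraries and 1040 over the Gb1np libraries, which stood at 12.4, 11.9 and 23.5 RPKM, a ratio of 1023 with a 95% counting interval of 183 to 40440. The log2 fold change of 9.49 (SE 0.58, adjusted p = 1.39e-04 by edgeR's quasi-likelihood test with Benjamini-Hochberg adjustment) was lost without any Gb1WT library (up to 0.0039). In G. hirsutum seedlings both lines held it, at 18.6, 15.003 and 21.5 in Gh1WT and 17.2, 23.8 and 13.9 in Gh1np, which overlapped. At squaring it stood at 0.280 ± 0.245 in Gb3WT and 6.54 ± 3.55 in Gb3np, and at 5.47 ± 1.81 in Gh3WT and 9.14 ± 0.606 in Gh3np, with a species difference of 3.79 (SE 0.60, adjusted p = 3.07e-05, lost without replicate 1 or 3, up to 0.00724).

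**Figure D5:**
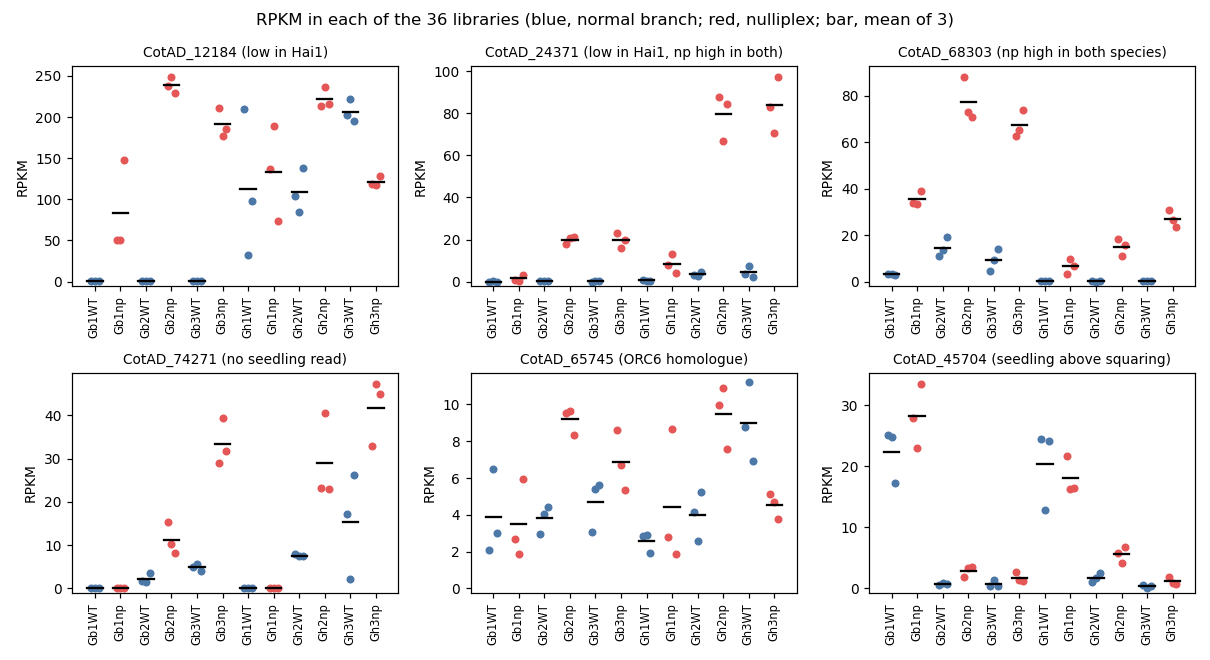
RPKM of 6 members in each of the 36 libraries, with bars at the mean of 3, normal branch in blue and nulliplex in red. CotAD_12184 is near 0 only in Hai1, CotAD_24371 and CotAD_68303 are higher in nulliplex libraries in every pair, CotAD_74271 has no seedling read, CotAD_65745 (ORC6) is lower in nulliplex at squaring in G. hirsutum, and CotAD_45704 is higher in seedling than in later libraries.

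A further pattern held 7 members whose nulliplex mean was at least 2 times the normal-branch mean at seedling and squaring in both species with no overlap of libraries in any of the 4 pairs (5.79%, against 0.0364% of the background). Without the demand on overlap there were 8 (6.61%, against 0.0504%). The 7 were CotAD_24371, CotAD_25394, CotAD_25395, CotAD_56894, CotAD_68302, CotAD_68303 and CotAD_75216, and the eighth was CotAD_04486. Of the 7, 3 also belong to the pattern low in Hai1. All 4 members called higher in Gh3np were among them, and 5 were called higher in Gb3np and 2 in Gb1np.

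CotAD_68302 stood at 4.81, 5.44 and 4.57 RPKM in Gb1WT and 44.6, 40.3 and 58.5 in Gb1np, and at 4.38, 5.80 and 6.89 in Gb3WT and 34.2, 37.8 and 40.7 in Gb3np. In Huazhong 94-3130 it had 6 reads in Gh1WT, 1 in Gh2WT and 1 in Gh3WT, whereas line 3798 held 3.11, 10.5 and 4.41 in Gh1np, 14.3, 13.4 and 12.7 in Gh2np and 11.4, 12.5 and 9.45 in Gh3np. The Gh3np total of 761 reads against 1 gave a ratio of 764 with a 95% counting interval of 137 to 30220. Every nulliplex library was above every normal-branch library of its pair, from a normal-branch level of several RPKM in Hai1 and near 0 in Huazhong 94-3130.

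By edgeR's quasi-likelihood test with Benjamini-Hochberg adjustment, the log2 fold change of CotAD_68302 was 3.22 (SE 0.15, adjusted p = 5.76e-05) in Gb1, 2.68 (SE 0.18, adjusted p = 6.06e-05) in Gb3 and 9.05 (SE 0.44, adjusted p = 1.29e-05) in Gh3. The Gb1 call was lost without Gb1WT replicate 1 (adjusted p = 0.00141) and the others held without any 1 library. In Gh1 it was 6.04 and was not called (adjusted p = 0.0327). The species difference at squaring was −6.36 (SE 0.74, adjusted p = 2.9e-07), larger in G. hirsutum.

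CotAD_68303, the next identifier, moved alike. It held 3.45, 3.20 and 2.94 RPKM in Gb1WT and 34.0, 33.2 and 39.0 in Gb1np, and 0.0430, 0.0878 and 0.0848 in Gh3WT against 31.0, 26.4 and 23.4 in Gh3np. The groups were far apart in each pair. The log2 fold change was 3.41 (SE 0.13, adjusted p = 3.2e-05) in Gb1 and 8.37 (SE 0.26, adjusted p = 1.95e-06) in Gh3, and the species difference −5.58 (SE 0.62, adjusted p = 1.42e-07), each held without any 1 library or replicate number, by edgeR's quasi-likelihood test with Benjamini-Hochberg adjustment. In Gb3 it was 2.79 and missed the threshold (adjusted p = 0.00145), as in Gh1 with 6.02 (adjusted p = 0.00864).

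CotAD_24371 and CotAD_56894 had the largest smaller ratio of both species at pre-squaring, 23.3 and 48.5, which is how they were picked out. CotAD_24371 stood at 0, 0.116 and 0.0485 RPKM in Gb3WT and 23.0, 15.9 and 19.8 in Gb3np, and at 3.63, 7.5 and 2.23 in Gh3WT and 83.2, 70.8 and 97.4 in Gh3np. It was higher in nulliplex libraries in both species, from a normal-branch level near 0 in Hai1 only. Log2 fold changes were 8.36 (SE 0.41, adjusted p = 1.13e-05) in Gb3 and 4.18 (SE 0.37, adjusted p = 2.42e-04) in Gh3 by edgeR's quasi-likelihood test with Benjamini-Hochberg adjustment. The latter call was lost without Gh3WT replicate 1 or any Gh3np library (up to 0.00162).

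In seedlings CotAD_24371 stood at 0, 0.0470 and 0 RPKM in Gb1WT against 0.780, 0.302 and 3.32 in Gb1np, and at 0.920, 0.269 and 0.437 in Gh1WT against 7.99, 12.9 and 4.16 in Gh1np. The libraries did not overlap and the test missed the threshold in both, with adjusted p of 0.0376 and 0.0476 by edgeR's quasi-likelihood test with Benjamini-Hochberg adjustment.

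CotAD_56894 had no read in Gb1WT or Gb2WT and 3 in Gb3WT, all in replicate 3. Xinhai16 held 0.362, 0.0685 and 0.588 RPKM in Gb1np and 4.11, 3.20 and 3.56 in Gb3np, and line 3798 held 12.2, 11.02 and 11.3 in Gh3np against 0.198, 0.372 and 0.163 in Gh3WT. The 323 reads of Gb3np against 3 gave a ratio of 104.9 with a 95% counting interval of 35.6 to 511. Its log2 fold change was 6.50 (SE 0.60, adjusted p = 4e-04) in Gb3, lost without Gb3WT replicate 1 or 2 or any Gb3np library (up to 0.00276), and 5.47 (SE 0.26, adjusted p = 9.6e-06) in Gh3, held without any 1 library, by edgeR's quasi-likelihood test with Benjamini-Hochberg adjustment.

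CotAD_75216 and CotAD_04486 had no read in Gb1WT, and at squaring in Hai1 they were at least 103-fold and at least 45.5-fold higher against a floor of 3 reads over the seedling group (adjusted p = 4.48e-05 and 4.71e-04 by edgeR's quasi-likelihood test with Benjamini-Hochberg adjustment). The latter call was lost without any Gb1WT library or Gb3WT replicate 2 or 3 (up to 0.0022). Without a seedling read in Hai1 both could only be called higher there, so this stage comparison is a description. CotAD_75216 stood at 3.89, 4.82 and 2.36 RPKM in Gb3WT and 39.9, 23.2 and 47.5 in Gb3np, and at 2.42, 1.13 and 2.83 in Gh3WT and 6.59, 5.02 and 5.50 in Gh3np. The log2 fold change was 3.27 (SE 0.33, adjusted p = 6.17e-04) in Gb3, lost without any Gb3WT library or Gb3np replicate 1 or 3 (up to 0.0065), and 1.33 (SE 0.32, adjusted p = 0.0143) in Gh3, not called, by edgeR's quasi-likelihood test with Benjamini-Hochberg adjustment. CotAD_04486 stood at 7.42 ± 3.71 in Gb3WT and 60.1 ± 23.2 in Gb3np (SD, n = 3), with no overlap and an adjusted p of 0.00308.

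The patterns also differed by stage, which the rule did not use in G. barbadense. In G. hirsutum both squaring groups enter the rule's last condition, so the stage comparisons there are only partly free of it. All 4 squaring means were above all 4 seedling means for 44 members (36.4%, against 32.3% of the background), and all 4 seedling means were above for 9 (7.44%, against 12%). By edgeR's quasi-likelihood test with Benjamini-Hochberg adjustment, 28 of 90 members tested rose and 8 fell from Gb1WT to Gb3WT (8.04% and 9.32% of all genes), and 28 of 121 rose and 5 fell from Gb1np to Gb3np (5.81% and 9.4%). In G. hirsutum 22 of 115 rose and 3 fell from Gh1WT to Gh3WT (4.78% and 5.38%), and 11 of 120 rose and 1 fell from Gh1np to Gh3np (1.33% and 2.21%). A member without reads in a seedling group could pass the filter only through squaring, and could only be called higher. No read was found for 22 members in Gb1WT (18.2%, against 0.261% of the background) and 6 in Gb1np (4.96%, against 0.0448%). The same held for 7 in Gh1WT (5.79%, against 0.0813%) and 5 in Gh1np (4.13%, against 0.028%).

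These counts moved with single libraries, and calls over all genes moved with them. The 36 calls in Hai1 became 23 without Gb1WT replicate 1, a fit that called 1771 higher and 2775 lower of 46937 genes. The 33 members in Xinhai16 became 77 without Gb1np replicate 3, 16 without Gb1np replicate 1, 20 without Gb3np replicate 1 and 14 without Gb3np replicate 3. Over all genes these Gb1np fits called 4036 higher and 4995 lower of 47571, and 805 and 2327 of 47482. The Gb3np fits called 1223 and 2558 of 47148, and 813 and 1971 of 47134. The 25 members in Huazhong 94-3130 became 0 without Gh3WT replicate 1 or 2, 1 without Gh3WT replicate 3 and 15 without Gh1WT replicate 1. Over all genes these Gh3WT fits called 176 higher and 158 lower of 46702, 76 and 71 of 46656, and 269 and 235 of 46668. The Gh1WT fit called 1118 and 1981 of 46942. The 12 members in line 3798 became 26 without Gh1np replicate 2, the library that stood apart, and 0 without any other library. Without Gh1np replicate 2, 1959 of 47643 genes were called higher and 3526 lower, and the other fits called 0 genes in all.

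Genes silent in seedlings made up a small part. No read in any of the 12 seedling libraries was found for 5 members (4.13%, against 0.0168% of the background): CotAD_15749, CotAD_32983, CotAD_42559, CotAD_46268 and CotAD_74271. Having been picked for no seedling read, they had to stand higher at squaring, so their stage comparison is a description. Between branch types at squaring, 4 were called higher in Gb3np than in Gb3WT. A mean under 1 RPKM in each of the 4 seedling groups was found for 20 members (16.5%, against 0.995%).

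CotAD_74271 was the highest of them. It stood at 1.74, 1.41 and 3.66 RPKM in Gb2WT and 15.3, 10.2 and 8.20 in Gb2np, and at 4.98, 5.61 and 4.02 in Gb3WT and 29.1, 39.3 and 31.8 in Gb3np. In G. hirsutum it stood at 7.90, 7.45 and 7.42 in Gh2WT and 23.3, 40.4 and 23.0 in Gh2np, and at 17.2, 2.29 and 26.3 in Gh3WT and 32.9, 47.3 and 44.9 in Gh3np. Each nulliplex group lay wholly above its normal-branch group after the seedling stage, and Gh3WT replicate 2 was far below the other libraries of its group.

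Against a floor of 3 reads over the seedling group, CotAD_74271 was at least 66.8-fold higher at squaring in Hai1, at least 465-fold in Xinhai16 and at least 600.3-fold in line 3798. Between branch types at squaring in G. barbadense its log2 fold change was 2.73 (SE 0.18, adjusted p = 7.04e-05 by edgeR's quasi-likelihood test with Benjamini-Hochberg adjustment), a call lost without Gb3WT replicate 1 (0.00111).

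CotAD_42559 and CotAD_32983 followed it at lower levels, including the low Gh3WT replicate 2, where CotAD_42559 held 8.49, 0.635 and 8.94 RPKM and CotAD_32983 held 6.16, 0.741 and 9.70. Against the same floor CotAD_42559 was at least 339-fold and CotAD_32983 at least 272-fold higher at squaring than in seedlings of Xinhai16. CotAD_58789 had no read in 11 of the 12 seedling libraries and 2 reads in Gh1np replicate 2, and stood at 3.67 ± 0.901 in Gb3WT, 11.3 ± 4.22 in Gb3np, 3.87 ± 1.11 in Gh3WT and 9.43 ± 1.23 in Gh3np (SD, n = 3).

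The homologue of SEP3, a MADS-box factor that helps set the identity of floral organs, was left out of the set by name. It is given here because, like CotAD_74271, it had no read in any seedling library and was low in Gh3WT replicate 2. It stood at 10.02, 0.800 and 12.6 RPKM in Gh3WT and at 9.17, 11.7 and 16.5 in Gh3np, where, unlike for CotAD_74271, the branch types overlapped. In G. barbadense it stood at 2.70, 2.61 and 1.47 in Gb3WT and 5.96, 10.6 and 6.0 in Gb3np. Its log2 fold change in Gb3 was 1.68 (SE 0.33) and was not called (adjusted p = 0.0111 by edgeR's quasi-likelihood test with Benjamini-Hochberg adjustment).

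The 9 members with all 4 seedling means above all 4 squaring means were CotAD_03433, CotAD_08984, CotAD_18944, CotAD_22306, CotAD_27753, CotAD_29998, CotAD_45704, CotAD_52429 and CotAD_72722. None of them was called higher in a branch comparison at seedling or squaring by edgeR. The nulliplex libraries lay wholly above for 1 of the 9 in Gb1, 4 in Gb3, 0 in Gh1 and 2 in Gh3. Of the background genes 12.6%, 24.4%, 6.43% and 26.9% did so. The nulliplex mean was at least 2 times the normal-branch mean for 3 in Gb3 and 2 in Gh3 (3.44% and 5.83% of the background). With 9 members, nothing is read from these counts. CotAD_45704 stood at 25.1, 24.8 and 17.3 RPKM in Gb1WT, 27.96, 23.1 and 33.6 in Gb1np, 24.4, 12.8 and 24.1 in Gh1WT and 21.7, 16.2 and 16.5 in Gh1np. At squaring it had fallen to 0.731 ± 0.571 in Gb3WT, 1.75 ± 0.762 in Gb3np, 0.348 ± 0.306 in Gh3WT and 1.15 ± 0.574 in Gh3np (SD, n = 3).

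The decline of CotAD_45704 was called in all 4 lines by edgeR's quasi-likelihood test with Benjamini-Hochberg adjustment, with log2 fold changes of −5.19 (SE 0.39, adjusted p = 6.41e-06) in Hai1, −4.27 (SE 0.28, adjusted p = 3.14e-05) in Xinhai16, −6.03 (SE 0.61, adjusted p = 2.31e-04) in Huazhong 94-3130 and −4.33 (SE 0.37, adjusted p = 5.23e-04) in line 3798. The G. barbadense calls held without any 1 library. The call in Huazhong 94-3130 was lost without any Gh3WT library (up to 0.002) and that in line 3798 without any library but Gh1np replicate 2 (up to 0.0063). CotAD_29998 fell in the first 3 of these lines by 3.72 (SE 0.22), 3.63 (SE 0.35) and 3.72 (SE 0.35) on the log2 scale, with adjusted p of 1.54e-06, 1.49e-04 and 1.83e-04 by the same test. Its calls in Xinhai16 and Huazhong 94-3130 were lost without Gb3np replicate 3 (0.00168) and without any Gh3WT library (up to 0.00213).

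CotAD_72722 and CotAD_22306 had the highest mean over the 36 libraries, 196 and 136 RPKM. CotAD_22306 stood at 30.7, 37.6 and 34.9 in Gb2WT and 70.8, 88.0 and 85.9 in Gb2np, and at 35.2, 31.5 and 39.2 in Gh2WT and 89.4, 82.0 and 91.3 in Gh2np. In seedlings it stood at 368, 373 and 314 in Gb1WT, 103, 119.8 and 57.8 in Gb1np, 234, 426 and 648 in Gh1WT and 566, 50.9 and 367 in Gh1np, whose low value was replicate 2. The nulliplex seedlings of G. barbadense were thus the lower group, opposite to pre-squaring, though the difference was not called (log2 fold change −1.95, SE 0.27, adjusted p = 0.00674 by edgeR's quasi-likelihood test with Benjamini-Hochberg adjustment).

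From seedling to squaring CotAD_22306 fell by 3.21 (SE 0.19, adjusted p = 1.38e-06) on the log2 scale in Hai1 and by 3.14 (SE 0.38, adjusted p = 4.51e-04) in Huazhong 94-3130 by the same edgeR test. The latter call was lost without any Gh3WT library (up to 0.00428). CotAD_72722 varied widely between replicates, from 37.3 to 629 in Gb1WT and from 106 to 668 in Gh1np. At pre-squaring it stood at 28.5 ± 7.80 in Gb2WT and 203 ± 39.1 in Gb2np (SD, n = 3).

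The remaining 76 members belonged to none of these patterns. Their median ratio of means was 1.25 in Gb1 (over the 69 with reads in Gb1WT), 2.09 in Gb3, 1.98 in Gh1 (over 75) and 0.691 in Gh3. They included CotAD_06850 and CotAD_17330, the members called lower in Gh3np. CotAD_06850 stood at 52.7, 53.3 and 55.1 RPKM in Gh3WT and 31.6, 24.3 and 24.7 in Gh3np, and CotAD_17330 at 9.33, 9.91 and 9.82 against 5.67, 4.86 and 4.76. The log2 fold changes were −1.08 (SE 0.13, adjusted p = 8.71e-04) and −1.003 (SE 0.11, adjusted p = 6.66e-04) by edgeR's quasi-likelihood test with Benjamini-Hochberg adjustment, close to the fold limit of the rule, and both calls were lost without any of the 6 libraries (up to 0.00757 and 0.0065).

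CotAD_17330 moved the other way at squaring in G. barbadense, from 1.44, 1.99 and 2.52 RPKM in Gb3WT to 10.9, 9.43 and 9.12 in Gb3np. Here the log2 fold change was 2.26 (SE 0.19, adjusted p = 2.81e-04), lost without Gb3WT replicate 2 or any Gb3np library (up to 0.00253), and the species difference 3.25 (SE 0.52, adjusted p = 3.34e-05), lost without replicate 1 or 3 (up to 0.0122), by edgeR's quasi-likelihood test with Benjamini-Hochberg adjustment. Of the 76, CotAD_13482, at the edge of the rule, rose from seedling to squaring in Hai1 (log2 fold change 2.21, SE 0.32, adjusted p = 3.43e-04) and in Huazhong 94-3130 (2.77, SE 0.36, adjusted p = 6.06e-04) by the same edgeR test, each lost without 4 of the 6 libraries: Gb1WT replicate 1 or 3 and Gb3WT replicate 1 or 2 (up to 0.00205), and Gh1WT replicate 3 and any Gh3WT library (up to 0.00394).

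Among the members, 14 formed 7 pairs of consecutive identifiers, 4 of the pairs within the pattern low in Hai1 and 1 of them CotAD_68302 and CotAD_68303. Their positions and sequences were not used here. Reads that fit both genes of such a pair could be split or lost in the counting, and the values of each are uncertain to that extent.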

How the data were processed

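Counts of reads per gene model were deposited by the authors for each of 36 mRNA libraries. They had discarded reads with unknown bases, adaptor sequence or no insert, and placed the remainder with SOAP2 on the genome of G. hirsutum, where up to 5 mismatches were accepted. G. barbadense reads were therefore placed on G. hirsutum models. How reads that fit several models were treated is not given in the sources used here. The deposited RPKM values were made by the authors, and recomputing them from count, length of the model and library total gave the same values. The share of each model covered by reads was taken from the deposited coverage column. Genes not listed in a library were set to 0. The small RNA counts were not used.

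Counts were fitted with edgeR 4.0.16 (R 4.3.3; TMM, filterByExpr with a minimum count of 10, quasi-likelihood F test), with p-values adjusted over all genes tested by Benjamini-Hochberg. A call needs an adjusted p under 0.001 and a log2 fold change beyond 1. A standard error is the fold change divided by the root of F. Each branch or stage comparison used its own 6 libraries, and the contrasts of contrasts all 36. Alternatives were DESeq2 1.42.0, no filter, the replicate number as a block, all 36 libraries in 1 fit, limma 3.58.1 on log2(RPKM + 1) and log2(RPKM + 0.1), and leaving out each replicate. The code was tested on simulated data. TMM moved the median gene by −0.08 to 0.04 (log2) against RPKM in branch comparisons and by −0.35 to −0.21 in stage comparisons, all genes alike. Comparisons that share a group are not independent. Counting intervals are exact 95% binomial intervals and, like floors of 3 reads, cover counting error only.

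The members and lists were chosen with earlier results of these data known. Named genes were the members with a homologue in the study's tables, up to 2 unnamed members with the largest called rises and falls a comparison, the 2 with the largest smaller pre-squaring ratio, the 2 with the highest mean and those at the rule's edges. The patterns and their lists of identifiers were drawn up after the values were seen. Leaf numbers are those of the labels, which differ in places from those in the study's text.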

Additional observations from a re-analysis of the deposited data

Results flagged for a closer look

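Each of these genes was taken up because the branch effect at squaring differed between the species by a test of the difference itself, edgeR's quasi-likelihood test on the log2 fold change of G. barbadense minus that of G. hirsutum with Benjamini-Hochberg adjustment. The difference was 9.52 for CotAD_12184, 8.16 for CotAD_76734, 7.98 for CotAD_15968 and 3.79 for CotAD_04162, which are named members low in Hai1. For CotAD_24371, also named and low in Hai1, it was 4.18 and was not called (adjusted p = 0.00257 by the same test). Among the called genes, the others were not of that pattern. It was 3.25 for CotAD_17330, which was higher in Gb3np and lower in Gh3np. It was −6.36 for CotAD_68302 and −5.58 for CotAD_68303, which were higher in the nulliplex line of both species and by more in G. hirsutum. The Gh3 side of the comparison is bounded by the rule for members.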

How the results depend on the processing

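None of the named genes' called values changed sign under the alternatives run. Of the values of the named genes under the alternatives, 575 stayed on their side of the threshold and 187 lost the call, over 67 results. With DESeq2 the members called numbered 41 in Gb1 (8 with edgeR), 3 in Gh1 (0), 16 in Gh3 (6), 70 in Xinhai16 from seedling to squaring (33), 66 in Huazhong 94-3130 (25), 31 in line 3798 (12) and 1 for the change of the branch effect in G. barbadense (0). Calls over all genes rose as well (edgeR in parentheses). Higher and lower, they were 524 and 388 of 57732 in Gb1 (119 and 70). In Gh1 they were 205 and 184 of 58290 (0 and 0), and in Gh3 1749 and 1376 of 59476 (402 and 424). Xinhai16 gave 5547 and 5976 of 59393 (2690 and 4354). Huazhong 94-3130 gave 5328 and 5121 of 58954 (2189 and 2462). Line 3798 gave 3307 and 4503 of 59503 (615 and 1024). The change of the branch effect gave 290 and 253 of 64274 (102 and 79). With all 36 libraries in 1 fit the members called numbered 38 in Gb1, 7 in Gh1, 60 in Xinhai16, 58 in Huazhong 94-3130 and 30 in line 3798. Of all 51627 genes tested, it called 474 higher and 304 lower in Gb1, and 275 and 285 in Gh1. In Xinhai16 it called 5218 and 5373, in Huazhong 94-3130 5497 and 5437, and in line 3798 3371 and 4541. Gb1 gave 17 members with no filter and 17 with limma on log2(RPKM + 0.1), and Huazhong 94-3130 gave 38 with limma on log2(RPKM + 1). Over all genes these fits called 189 higher and 114 lower of 57732, 164 and 76 of 44072, and 3439 and 1954 of 45802. With the replicate number as a block, 26 members were called in Gb3 (45 without), 3 in Gh3, 21 in Xinhai16, 5 in Huazhong 94-3130 and 0 in line 3798. Of all genes, 166 were then called higher and 63 lower of 46682 in Gb3, and 63 and 58 of 46482 in Gh3. In Xinhai16 they were 1510 and 2843 of 46322, in Huazhong 94-3130 402 and 547 of 45802, and in line 3798 0. The replicate numbers do not pair the samples, since same-numbered libraries deviated from their group means with correlations of −0.41 to 0.20 and no pair of groups had all 3 over 0.1. Leaving out 1 library gave 1 to 18 members in Gb1, 24 to 37 in Gb3, 3 to 4 in Gh3, 23 to 32 in Hai1, 14 to 77 in Xinhai16, 0 to 26 in Huazhong 94-3130 and 0 to 26 in line 3798. Calls over all genes fell or rose with them in the fits given above. Leaving out 1 replicate number of every group gave 12 to 33 for the species difference, and for the change of the branch effect in G. barbadense moved the members at an unadjusted p under 0.05 from 11 higher and 18 lower to 30 higher and 10 lower (without replicate 3). A fold limit of 3 in the rule would leave 23 members, and dropping its squaring condition 191. With 3 libraries a group, members with few reads in a normal-branch group were known only to within their counting intervals.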
